A study of Mus musculus with 13 samples.

Results

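The 38 genes described here encode RNA polymerase I, the factors that bring it to ribosomal DNA, and the nucleolar machinery that trims, modifies and folds ribosomal RNA (rRNA) into ribosomal subunits. They were listed by their known roles, with earlier results of these data known, and all 38 were among the 13222 genes of the deposited table and passed the filter on low reads that left 12319 genes for testing. They were measured in 4T1-Thy1.1 cells, a BALB/c mouse mammary carcinoma line that carries a Thy1.1 transgene, cultured in wells for 48 h. Cells were left untreated (control, 3 libraries, labelled replicates 1, 3 and 5) or received 200 ng/mL doxorubicin (DOX, 4 libraries, replicates 1 to 4), 25 ng/mL recombinant mouse IL-17A (IL-17A, 3 libraries, replicates 2, 3 and 5) or both agents (DOX+IL-17A, 3 libraries, replicates 2, 3 and 5). All groups share the single transgenic line, and the labels do not say whether replicates were separate cultures, so p-values measure the spread between these libraries, which may be technical.

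RNA polymerase I transcribes the long precursor of all rRNAs but the 5S inside the nucleolus. Small nucleolar ribonucleoproteins (snoRNPs) then modify it at positions chosen by base pairing, the small subunit processome folds and cleaves the part that becomes the 40S subunit, and separate assembly factors build the 60S subunit. DOX intercalates into DNA and poisons topoisomerase II, and inhibition of rRNA synthesis and disruption of the nucleolus are known effects of anthracyclines. The libraries were made from the 3' ends of polyadenylated mRNA, so they show the messages of this machinery and neither rRNA synthesis nor nucleolar structure.

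The start regions of 32 of the 38 genes were matched in the RefSeq promoter table (GRCm38.p6, 250 bases before to 50 after each gene start), and 5 motifs known from promoters of housekeeping and growth genes were searched on both strands. The E-box CACGTG, which MYC and MAX bind, was present in 6 of 32 member windows (18.8%), against 11.8% of the 9424 windows of tested genes and 8.09% of all 27025. TCTCGCGA occurred in 3 windows (9.38%, against 2.57% and 1.13%), the ETS motif CCGGAAGT in 7 (21.9%, against 9.59% and 4.31%), the palindromic NRF1 motif in 7 (21.9%, against 11.9% and 5.19%) and CCAAT in 10 (31.2%, against 43.7% and 41.1%). A match is a description of the letters and is not evidence of binding. 6 stretches are shown, for genes that carry the results below, 5' to 3' on the gene's strand and ending before the RefSeq gene start. Capitals mark the motif: the E-box in *Nop2* (chr6:125131793-125131858, plus strand) and *Rrn3* (chr16:13780621-13780686, plus strand), TCTCGCGA in *Nop14* (chr5:34660149-34660213, minus strand) and *Nop58* (chr1:59684824-59684891, plus strand), and CCAAT in *Polr1a* (chr6:71908992-71909052, plus strand) and in *Ddx10* (chr9:53248160-53248224, minus strand), a gene that fell with DOX.
Nop2: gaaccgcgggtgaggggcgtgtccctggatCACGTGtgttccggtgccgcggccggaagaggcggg
Rrn3: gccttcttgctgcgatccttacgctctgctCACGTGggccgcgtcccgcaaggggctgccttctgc
Nop14: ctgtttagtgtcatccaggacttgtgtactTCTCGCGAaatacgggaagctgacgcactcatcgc
Nop58: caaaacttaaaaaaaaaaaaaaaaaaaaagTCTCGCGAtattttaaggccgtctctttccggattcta
Polr1a: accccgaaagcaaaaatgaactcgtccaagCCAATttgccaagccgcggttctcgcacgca
Ddx10: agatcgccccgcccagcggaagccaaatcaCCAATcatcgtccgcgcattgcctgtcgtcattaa
The E-box lay 60 bases before the start of *Nop2* and 48 before that of *Rrn3*, and TCTCGCGA lay 35 bases before *Nop14* and 152 before *Nop58*, counted from the first base of the motif. *Rrn3* held another E-box upstream of the one shown.

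Control replicate 1 stood apart from the other libraries for these genes. It was the highest of the 6 libraries without DOX for 23 of 38 members and the lowest for 6, and it lay above all 7 libraries with DOX for 8 members. The other libraries without DOX each did so for 2 to 4 members. *Npm1* and *Ddx10*, which fell with DOX, are in the count of every library. *Wdr43*, a small subunit processome protein, measured 1139.7 in it and between 311 and 538 in the other libraries without DOX. Its reads differed from those of the other control libraries by a chi-square of 177 and 116 per degree of freedom, against 24.8 between the other pair. Other groups also held distant pairs: IL-17A replicate 5 stood at 94.7 and 62.3 from IL-17A replicates 2 and 3. DOX+IL-17A replicate 5 stood at 58.0 and 55.3 from replicates 2 and 3 of its group. IL-17A replicate 2 was the highest library without DOX for 11 members. The 5 fibroblast markers of control replicate 1 summed to 143, against 27.9 to 78.1 in the other 12 libraries.

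Reads on listed genes ranged from 4445592 to 16930600 per library, so that 3 reads correspond to 0.183 to 0.613 units, a limit that covers counting error only. All 6 markers of 4T1 cells were detected in every library, with a summed value of 604 to 818 with DOX and 1101 to 1653 without. DOX replicate 1 had a summed value of 276 over 9 skeletal muscle markers, against 8.84 to 44.0 in the other libraries, and of 66.5 over 3 red blood cell genes, against 0 to 14.4. The 2 immune cell markers summed to 8.79 to 19.4 with DOX and to 1.52 to 13.1 without. The part of these markers in the results was not tested. Results that rest on control replicate 1 are given with and without it.

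DOX raised most of these messages. In the average DOX effect, which takes the mean of the change from control to DOX and the change from IL-17A to DOX+IL-17A, 24 of 38 members were higher and 2 were lower at a limma adjusted p under 0.05, against 18.5% of all tested genes higher and 15.8% lower. The median log2 fold change was 0.81 over the members and 0.06 over all tested genes. *Rrp9* and *Nop2* rose by more than any other member, *Npm1* and *Ddx10* fell, and the 12 members not called included *Ncl* and *Ubtf*, whose log2 fold changes were 0.02 and 0.07. Values are TMM-normalized (each count over its library's TMM-scaled size) and fold changes are on log2(value + 1), which makes the change of low genes smaller. In bulk RNA, fewer cells of a kind and less RNA per cell cannot be told apart.

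The same counts were taken at a stricter level and by library. With a fold change above 2 added to the adjusted p, 12 members were higher and 1, *Npm1*, was lower, where 8.27% of tested genes were higher and 6.1% were lower. In 7 members (*Bop1*, *Ddx21*, *Nolc1*, *Nop16*, *Nop2*, *Polr1a* and *Rrp9*) every one of the 7 libraries with DOX lay above every one of the 6 libraries without it, an order seen in 7.01% of tested genes. For *Npm1* and *Ddx10* all libraries with DOX lay below all libraries without it, as for 7.09% of tested genes.

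**Figure D1:**
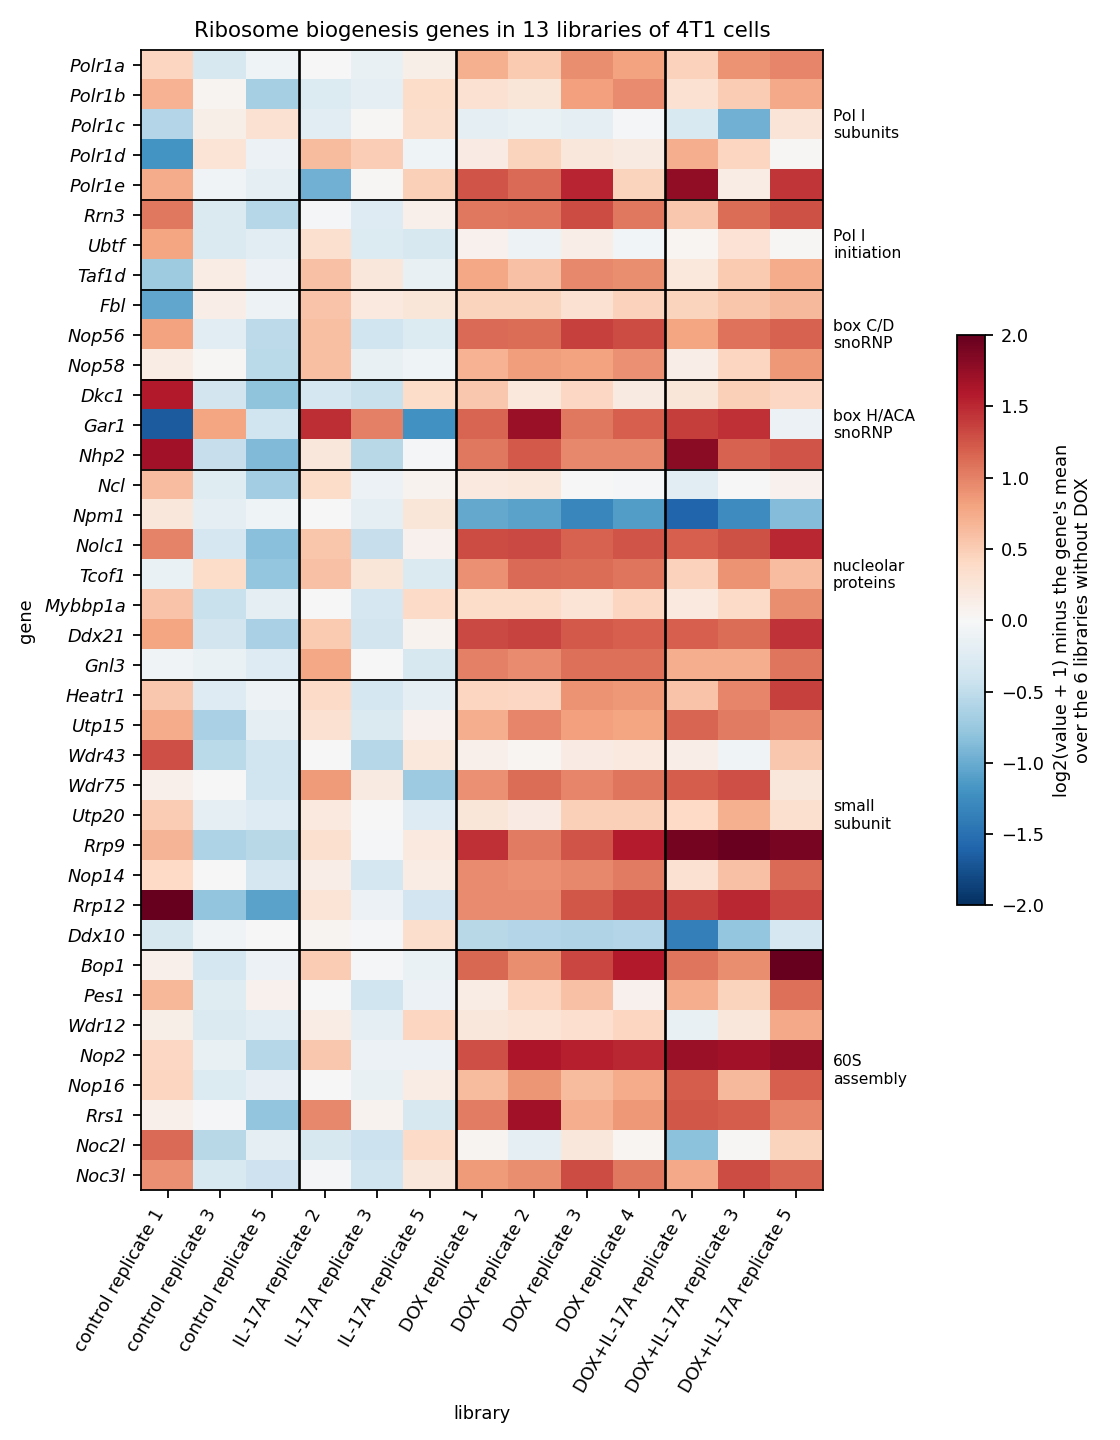
Heat map of the 38 genes (rows, by role) in the 13 libraries (columns), as log2(value + 1) minus the gene's mean over the 6 libraries without DOX, with red above and blue below that mean. Most rows are red in the 7 DOX columns, *Npm1* and *Ddx10* are blue there, and control replicate 1 is red for many rows where the other libraries without DOX are pale or blue.

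The counts were also taken without control replicate 1, which was singled out in part by its high values for these same members. Leaving out a high library without DOX makes the rise of such members larger by construction, so these counts are not separate support. Without it 28 members were higher and 2 lower in the average DOX effect (20.8% and 18.6% of tested genes). Then 15 members were separated upward without overlap (9.38% of tested genes) and 2 downward (10%). The 8 added to the separated ones were *Heatr1*, *Nhp2*, *Noc3l*, *Nop14*, *Nop56*, *Rrn3*, *Rrp12* and *Utp15*. Over the 13 fits that each left out 1 library, the average DOX effect called 24 to 30 members.

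Of the 5 RNA polymerase I subunits, 2 were higher with DOX. *Polr1a* encodes the largest, catalytic subunit and measured 73.8, 43.8 and 51.5 in the control libraries and 90.5, 79.3, 105 and 96.7 with DOX. It measured 55.3, 49.0 and 59.2 with IL-17A and 76.1, 103 and 109 with DOX+IL-17A. The lowest library with DOX was thus just above the highest without, and the average log2 fold change was 0.77 ± 0.16 (SE, adjusted p = 0.00167). *Polr1e*, a subunit of the TFIIF-like subcomplex, was low everywhere, at 1.80 to 8.12 without DOX and 5.06 to 17.8 with it, and rose by 1.1 ± 0.33 on the log2 scale (adjusted p = 0.0175). That call was lost without DOX+IL-17A replicate 2 (adjusted p = 0.0512).

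*Polr1b*, the second largest subunit, did not pass. It measured 11.3, 6.88 and 3.77 in the control libraries, 5.29, 5.66 and 8.78 with IL-17A, 8.37, 7.99, 12.4 and 13.6 with DOX and 8.38, 9.73 and 11.8 with DOX+IL-17A. The groups overlapped through control replicate 1 and IL-17A replicate 5, and the log2 fold change was 0.55 ± 0.26 (adjusted p = 0.11, and 0.0266 without control replicate 1). *Polr1c* and *Polr1d*, which RNA polymerases I and III share, had log2 fold changes of -0.23 and 0.32 and were not called (adjusted p = 0.391 and 0.265).

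Of the 3 initiation factors, *Rrn3* and *Taf1d* were higher in the average DOX effect and *Ubtf* was not called. In DOX+IL-17A against IL-17A 0 of the 3 were called. *Rrn3* encodes TIF-IA, which makes RNA polymerase I competent to initiate. It measured 101, 39.3 and 31.9 in the control libraries, 47.2, 40.2 and 51.6 with IL-17A, 101, 103, 121 and 101 with DOX and 70.3, 105 and 117 with DOX+IL-17A. Control replicate 1 reached the level of the DOX libraries, and the other 5 libraries without DOX lay below all 7 with it. The average log2 fold change was 1.05 ± 0.23 (adjusted p = 0.00247) and 1.30 without that library. *Taf1d*, a subunit of the promoter selectivity factor SL1, ranged from 135 to 333 without DOX and from 257 to 430.3 with it (log2 fold change 0.65 ± 0.17, adjusted p = 0.00803). It was at 1.04 in DOX against control (limma adjusted p = 0.00609) and at 0.27 in DOX+IL-17A against IL-17A (0.518). Its gene holds 8 snoRNA genes, the most of any member, and a processed pseudogene matches 414 bases near its end at 97.3% identity, so its value is uncertain.

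*Ubtf* encodes UBF, the architectural factor that keeps ribosomal DNA open. It measured 194, 91.4 and 94.7 in the control libraries, 140.0, 91.6 and 88.8 with IL-17A, 118, 104, 123 and 107 with DOX and 115, 136 and 113 with DOX+IL-17A. All 7 libraries with DOX lay within the range of those without it, and the log2 fold change of 0.07 ± 0.18 did not pass (adjusted p = 0.805).

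The 3 listed core proteins of box C/D snoRNPs, which guide 2'-O-methylation of rRNA, were all higher in the average DOX effect. In DOX+IL-17A against IL-17A only *Nop56* among them was called. *Nop56* ranged from 199 to 503 without DOX and from 496 to 739.6 with it, overlapping by control replicate 1 alone, and rose by 1.12 ± 0.21 on the log2 scale (adjusted p = 0.000979). *Nop58*, its partner, rose by 0.64 ± 0.17 (adjusted p = 0.00958), from a range of 309 to 684 to one of 494 to 846. These genes hold 5 and 4 snoRNA genes, and 5 processed pseudogenes match the end of *Nop56* over at least 209 bases.

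*Fbl* encodes fibrillarin, the methyltransferase of these particles. It measured 46.2, 105 and 89.8 in the control libraries, 142, 111 and 114 with IL-17A, 132, 131, 119 and 133 with DOX and 131, 142 and 151 with DOX+IL-17A. The IL-17A libraries overlapped the DOX libraries and the control libraries lay below them. The log2 fold change was 0.48 ± 0.17 (adjusted p = 0.0409), and the call was lost in 10 of the 13 fits that left out 1 library, where adjusted p reached 0.0898, and in edgeR's quasi-likelihood test (adjusted p = 0.0577). Without control replicate 1, the lowest library for *Fbl*, the log2 fold change was 0.31 and not called (limma adjusted p = 0.0507). A processed pseudogene matches 386 bases near the end of *Fbl* at 100% identity. The protein-coding gene *Tulp4* matches 399 bases there, also at 100%, so the value of *Fbl* is uncertain.

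Of the box H/ACA proteins, which guide pseudouridylation, *Nhp2* was called. It ranged from 27.3 to 59.8 in 5 libraries without DOX and stood at 165 in control replicate 1, against 99.96 to 180.0 with DOX (log2 fold change 1.23 ± 0.31, adjusted p = 0.00709). *Dkc1*, the pseudouridine synthase dyskerin, measured 1163 in control replicate 1, 219 to 499 in the other libraries without DOX and 439.5 to 563 with DOX. Its log2 fold change was 0.36 (adjusted p = 0.367) with all libraries and 0.72 (adjusted p = 0.00136) without control replicate 1. *Gar1* ranged from 19.6 to 183 without DOX and from 59.7 to 215 with it, and its log2 fold change of 1.1 ± 0.44 was not called (adjusted p = 0.0649).

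**Figure D2:**
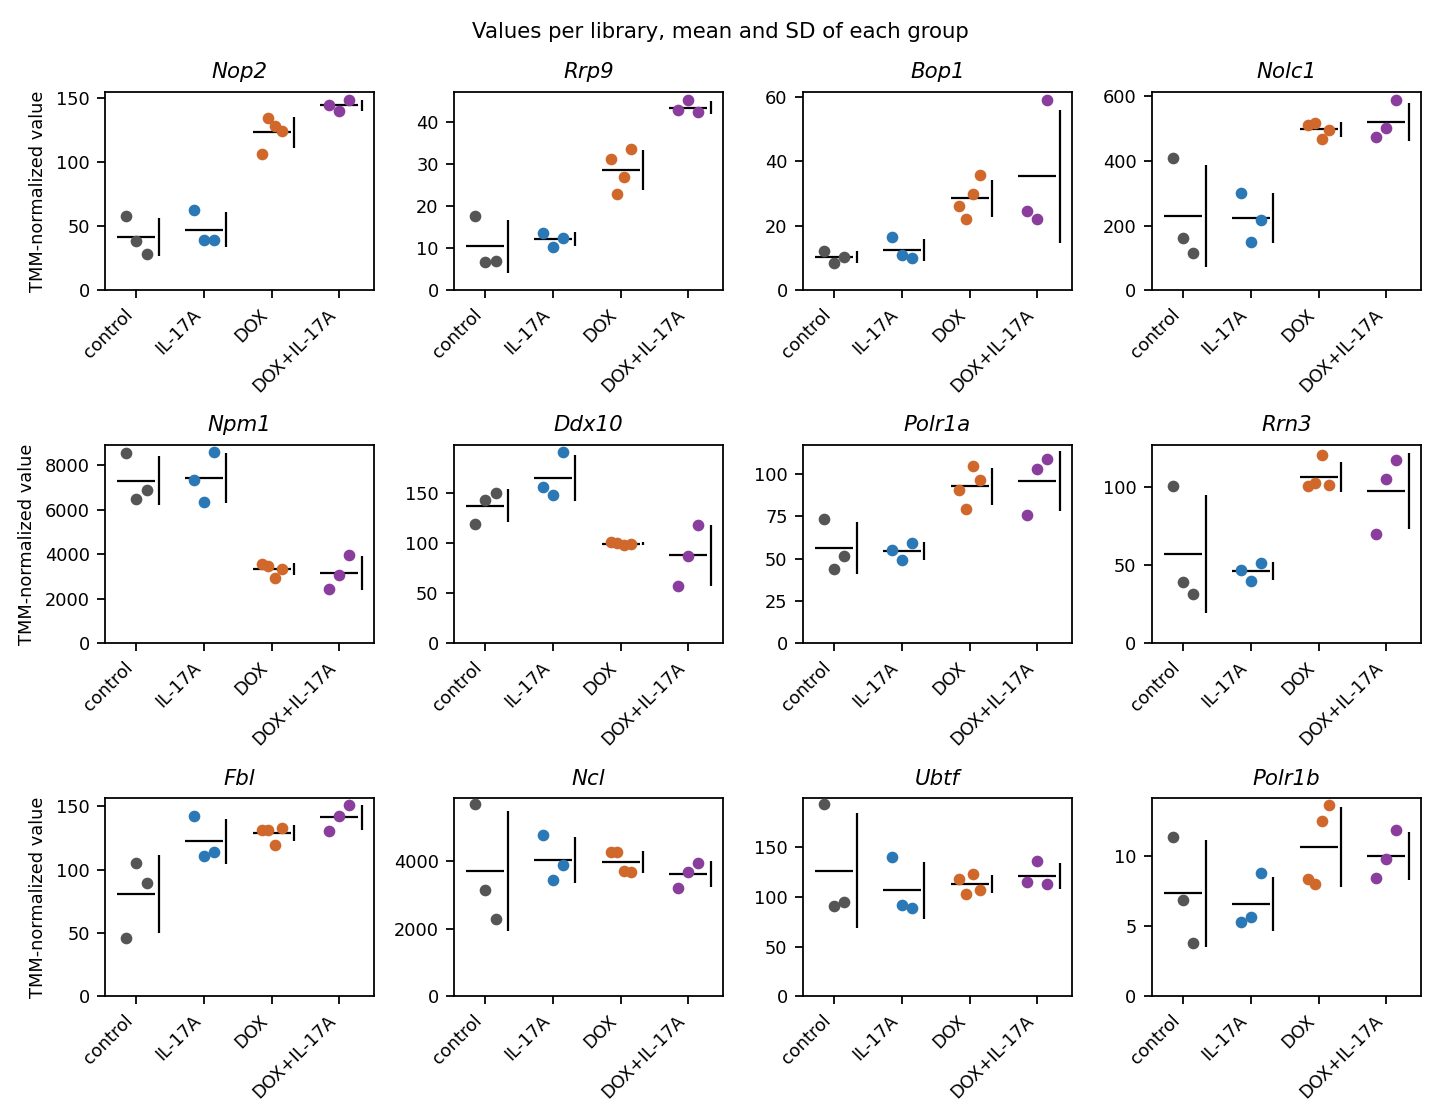
TMM-normalized value of 12 genes in each library (points), with the mean (horizontal bar) and SD (vertical bar) of each group: control, IL-17A and DOX+IL-17A have 3 libraries each and DOX has 4. The DOX groups stand above the others for *Nop2* and *Rrp9* and below them for *Npm1*, while for *Ncl* and *Ubtf* they lie within the spread of the control libraries.

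*Npm1*, which encodes nucleophosmin, an abundant nucleolar chaperone of ribosome assembly and histones, showed the largest fall. It measured 8554, 6472 and 6872 in the control libraries and 7322, 6348 and 8599.5 with IL-17A. With DOX it measured 3574, 3461, 2945 and 3357, and with DOX+IL-17A 2445, 3047 and 3988. The groups with and without DOX were far apart, and the average log2 fold change was -1.19 ± 0.17 (adjusted p = 0.000112), a 2.28-fold fall. It ranged from -1.28 to -1.10 in the fits that left out 1 library. 7 processed pseudogenes match the last 500 bases of *Npm1* over 82 to 396 bases at 95.6% to 98.8% identity, so reads could be split among them and the level is uncertain.

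*Ncl*, which encodes nucleolin, another abundant nucleolar RNA-binding protein, did not follow *Npm1*. It measured 5659.6, 3121 and 2284 in the control libraries, 4762, 3426 and 3876 with IL-17A, 4241, 4258, 3700.3 and 3650.1 with DOX and 3179.9, 3668 and 3929 with DOX+IL-17A. The libraries with DOX lay inside the range of those without it. The log2 fold change was 0.02 ± 0.20 (adjusted p = 0.94).

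These abundant messages set the share of reads taken by the module. *Npm1* took 0.612% to 0.768% of all normalized signal without DOX and 0.269% to 0.396% with it. The 36 members other than *Npm1* and *Ncl* together took 0.331% to 0.642% without DOX, where the highest was control replicate 1, and 0.737% to 0.860% with it, so the ranges did not overlap in either direction. The sum of all 38 did overlap, at 1.21% to 1.92% without DOX and 1.36% to 1.63% with it.

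The other nucleolar proteins were higher or not called. *Nolc1*, the snoRNP chaperone Nopp140, measured 409.6, 163 and 115 in the control libraries, 302, 150.0 and 218 with IL-17A, 509, 515, 466 and 496 with DOX and 475, 501 and 587 with DOX+IL-17A. All libraries with DOX lay above all libraries without it (log2 fold change 1.30 ± 0.24, adjusted p = 0.000862). *Ddx21*, an RNA helicase of the nucleolus, ranged from 233 to 637 without DOX and from 802 to 1004 with it, and rose by 1.26 ± 0.21 on the log2 scale (adjusted p = 0.000387). *Tcof1*, the treacle protein that recruits RNA polymerase I factors, and *Gnl3*, nucleostemin, rose by 0.86 and 0.94, while *Mybbp1a*, a repressor of ribosomal DNA transcription, had a log2 fold change of 0.43 and was not called (adjusted p = 0.0803), but was called higher without control replicate 1 (0.58, adjusted p = 0.00618) and also without IL-17A replicate 5.

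Of 9 genes for the small subunit processome and 40S maturation, 6 were higher and 1 was lower. *Rrp9* encodes a protein of the U3 snoRNP and had the largest rise of any member. It measured 17.8, 6.64 and 6.95 in the control libraries, 13.6, 10.4 and 12.4 with IL-17A, 31.2, 22.9, 26.8 and 33.7 with DOX and 42.9, 45.2 and 42.3 with DOX+IL-17A. Every DOX library lay above every library without DOX, and every DOX+IL-17A library lay above every DOX library. The share of tested genes with the second order was not counted, and limma did not call that difference. The average log2 fold change was 1.63 ± 0.22 (adjusted p = 7.48e-05), a 3.09-fold rise.

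*Heatr1*, *Utp15*, *Wdr75*, *Nop14* and *Rrp12* rose by 0.81, 0.94, 0.96, 0.82 and 1.27 on the log2 scale. The call for *Rrp12*, a factor for subunit export, was unsteady: it measured 67.0 in control replicate 1 and 6.60 to 18.4 in the other libraries without DOX, against 29.8 to 44.4 with DOX. Its log2 fold change was 1.27 with all libraries (adjusted p = 0.0198) and 1.77 without control replicate 1 (adjusted p = 2.22e-06). The call was lost without control replicate 5 (adjusted p = 0.0551) and in edgeR's quasi-likelihood test (0.93, adjusted p = 0.0988). *Utp20* and *Wdr43* had log2 fold changes of 0.41 and 0.16 and were not called with all libraries, but were called higher without control replicate 1 (adjusted p = 0.00557 and 0.0212).

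*Ddx10*, an RNA helicase of early 40S processing, fell. It measured 119, 143 and 150.1 in the control libraries, 156, 148 and 191 with IL-17A, 101, 99.7, 97.9 and 99.4 with DOX and 57.5, 87.5 and 118 with DOX+IL-17A. The highest value with DOX was just below the lowest without. The average log2 fold change was -0.70 ± 0.16 (adjusted p = 0.00326).

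Of 8 genes for 60S assembly, 6 were higher. *Nop2*, an rRNA methyltransferase long used as a marker of proliferation, measured 57.7, 38.8 and 28.4 in the control libraries, 62.7, 39.3 and 39.4 with IL-17A, 106, 134, 128 and 124 with DOX and 144, 139.8 and 148 with DOX+IL-17A. The lowest library with DOX was well above the highest without it. The average log2 fold change was 1.61 ± 0.17 (adjusted p = 1.14e-05), a 3.05-fold rise.

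*Bop1* and *Pes1* encode partners in the PeBoW complex, which processes the precursor of the large subunit rRNAs, with *Wdr12* as the third protein. *Bop1* measured 12.2, 8.59 and 10.3 in the control libraries, 16.4, 11.0 and 10.2 with IL-17A, 26.2, 22.2, 29.8 and 35.9 with DOX and 24.7, 22.2 and 59.1 with DOX+IL-17A. All libraries with DOX were higher, by an average log2 fold change of 1.34 ± 0.24 (adjusted p = 0.000647). *Pes1* ranged from 42.6 to 90.0 without DOX and from 60.1 to 123 with it, and rose by 0.54 ± 0.18 (adjusted p = 0.0288), a call lost in 6 of the 13 fits that left out 1 library. It was at 0.14 in DOX against control (limma adjusted p = 0.704) and at 0.93 in DOX+IL-17A against IL-17A (0.0275). *Wdr12* was not called (log2 fold change 0.30, adjusted p = 0.176), so the 3 partners had unequal values. Under library size scaling limma called it higher (adjusted p = 0.0167). Its end matches 3 other genes over 454 to 504 bases at 96.6% to 97.6% identity, so its value is uncertain. The differences among them were not tested.

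Among the other 60S factors, *Rrs1*, *Noc3l* and *Nop16* rose by 1.11, 1.05 and 0.87 on the log2 scale. *Noc2l*, which forms nucleolar complexes with other Noc proteins, had a log2 fold change of -0.05 (adjusted p = 0.914). It shares 598 exonic bases (20.9%) with *Samd11* on the opposite strand, and the strand setting of the counting is not given in the sources used here, so its value is uncertain.

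The effect of DOX was measured in both cytokine backgrounds, from libraries that the comparisons do not share. Against control, DOX alone raised 19 members (12.4% of tested genes) and lowered 1 (9.71%), with a median log2 fold change of 0.90 over the members and 0.09 over all tested genes. Against IL-17A, DOX+IL-17A raised 13 (6.51%) and lowered 2 (6.75%), with medians of 0.69 and 0.02. 35 of 38 members moved in the same direction in both, against 76.0% of all tested genes, and Pearson's r across the 38 genes was 0.78, against 0.72 across all tested genes. Genes are not independent replicates, and all points share the scaling of their libraries.

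The calls overlapped in part. *Bop1*, *Ddx21*, *Noc3l*, *Nolc1*, *Nop16*, *Nop2*, *Nop56*, *Polr1a*, *Rrp9* and *Utp15* were higher and *Npm1* was lower in both, which makes 11 of the 20 called with DOX alone and 11 of the 15 called with DOX on IL-17A. Over all tested genes 1147 were called in both, of 2724 and 1633. Called higher only in DOX against control were *Fbl*, *Gnl3*, *Nop14*, *Nop58*, *Rrn3*, *Rrs1*, *Taf1d*, *Tcof1* and *Wdr75*. Only in DOX+IL-17A against IL-17A were *Heatr1*, *Nhp2* and *Pes1* called higher and *Ddx10* lower. With the replicate number as a block, *Noc3l*, *Nop16* and *Utp15* lost the call for DOX against control. *Nop16* and *Utp15* also lost it in 6 of the 13 fits that left out 1 library, and *Noc3l* and *Polr1a* in 4. The call for DOX+IL-17A against IL-17A was lost by *Nop56* in 8 of these 13 fits and by *Nolc1*, *Polr1a* and *Utp15* in 5 each. *Bop1*, *Ddx21*, *Noc3l* and *Nop16* lost it in 2 to 4. *Nop2*, *Rrp9* and *Npm1* were called in both comparisons in every such fit and under every other setting. *Npm1* fell by 1.12 ± 0.23 without IL-17A (adjusted p = 0.0037) and by 1.25 ± 0.25 with it (adjusted p = 0.00531) on the log2 scale. *Nop2* rose by 1.59 ± 0.24 and 1.63 ± 0.25, *Bop1* by 1.37 ± 0.33 and 1.31 ± 0.35, *Nolc1* by 1.33 ± 0.33 and 1.27 ± 0.35, and *Rrp9* by 1.49 ± 0.30 and 1.77 ± 0.32.

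**Figure D3:**
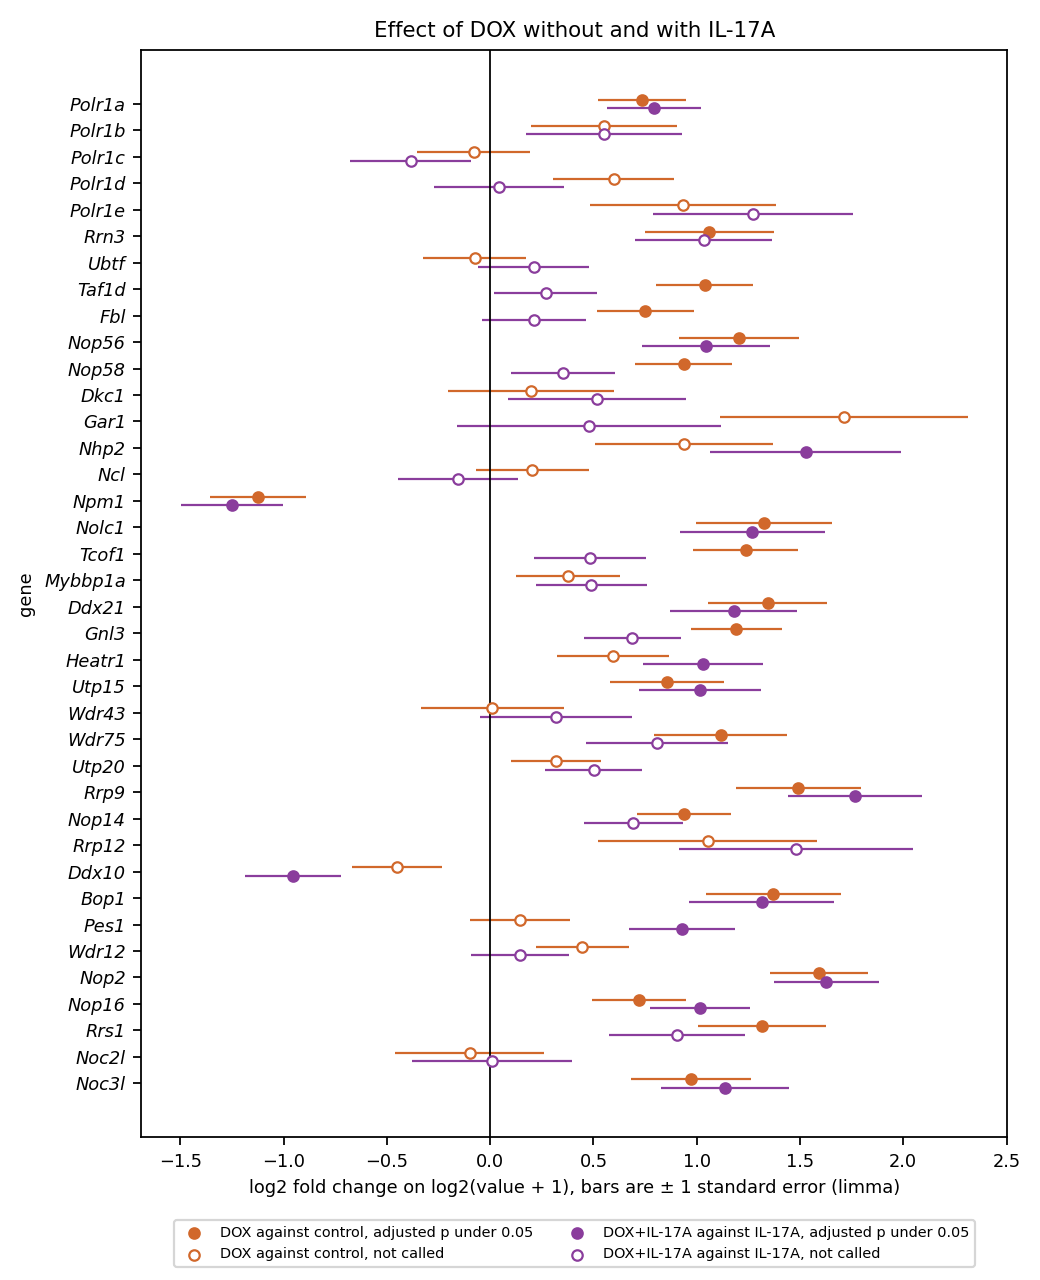
Log2 fold change on log2(value + 1) of each gene (rows) for DOX against control (orange) and DOX+IL-17A against IL-17A (purple), with bars of 1 standard error and filled points for a limma adjusted p under 0.05. Most pairs of points lie to the right of 0 and close to each other, *Npm1* lies at -1.12 and -1.25, and *Pes1* and *Taf1d* show the pairs with an unadjusted interaction p under 0.05.

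DOX+IL-17A was also set against control, where 15 members were higher (9.37% of tested genes) and 1 was lower (8.34%), with a median log2 fold change of 0.86 over the members and 0.04 over all tested genes. This comparison uses the control libraries of the DOX comparison and is not independent of it. *Rrp9* was at 2.09 ± 0.32 here (adjusted p = 0.000746), *Nop2* at 1.83 ± 0.25 (adjusted p = 0.000396), *Bop1* at 1.55 ± 0.35, *Nolc1* at 1.39 ± 0.35 and *Npm1* at -1.23 ± 0.25. Without control replicate 1, 26 members were higher and 2 lower, with a median of 0.91 over the members and 0.01 over all tested genes. Here too, leaving out this high control library makes such rises larger by construction. Without control replicate 5 the counts were 7 and 1, without DOX+IL-17A replicate 3 they were 8 and 1, and with the 2 groups fitted alone they were 4 and 0. The shares of all tested genes called in these fits were not counted.

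No member was called for IL-17A itself. In IL-17A against control, 0 of 38 passed limma's adjusted test (0.00812% of tested genes) and 2, *Fbl* and *Polr1d*, had an unadjusted p under 0.05 (3.08% of tested genes). Their log2 fold changes were 0.67 ± 0.25 and 0.69 ± 0.31, and both genes had their lowest value in control replicate 1. The median over the members was 0.05, and 22 of 38 were above 0. Without control replicate 1 the median was 0.32, with 35 of 38 above 0 and 0 called, while that over the tested genes was 0.00277. Leaving out a control library that is high for many members raises this change by construction. The shift is therefore not support for an effect of IL-17A.

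In DOX+IL-17A against DOX, 0 members passed (0.455% of tested genes), and 0 had an unadjusted p under 0.05 (6.35%). Log2 fold changes ran from -0.40 for *Tcof1* to 0.60 for *Rrp9* with a median of 0.04. *Rrp9* had an SE of 0.30 and an adjusted p of 0.872 in limma, although its DOX and DOX+IL-17A libraries did not overlap. The share of tested genes without such an overlap was not counted. The interaction, the difference between the DOX effects with and without IL-17A, called 0 members (0% of tested genes), and 2 had an unadjusted p under 0.05 (4.51%): *Taf1d* at -0.77 ± 0.34 and *Pes1* at 0.79 ± 0.35. The median of the interaction was -0.04 over the members, with 18 above 0 and 20 below. Without control replicate 1 it was -0.31, with 4 above 0, 34 below and 0 called, against a median of -0.04 over the tested genes. Leaving out a high control library enlarges the DOX effect without IL-17A only. It thus lowers the interaction by construction, and the shift is not support for one. voom with limma, DESeq2 and edgeR also called 0 members in these 3 comparisons.

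**Figure D4:**
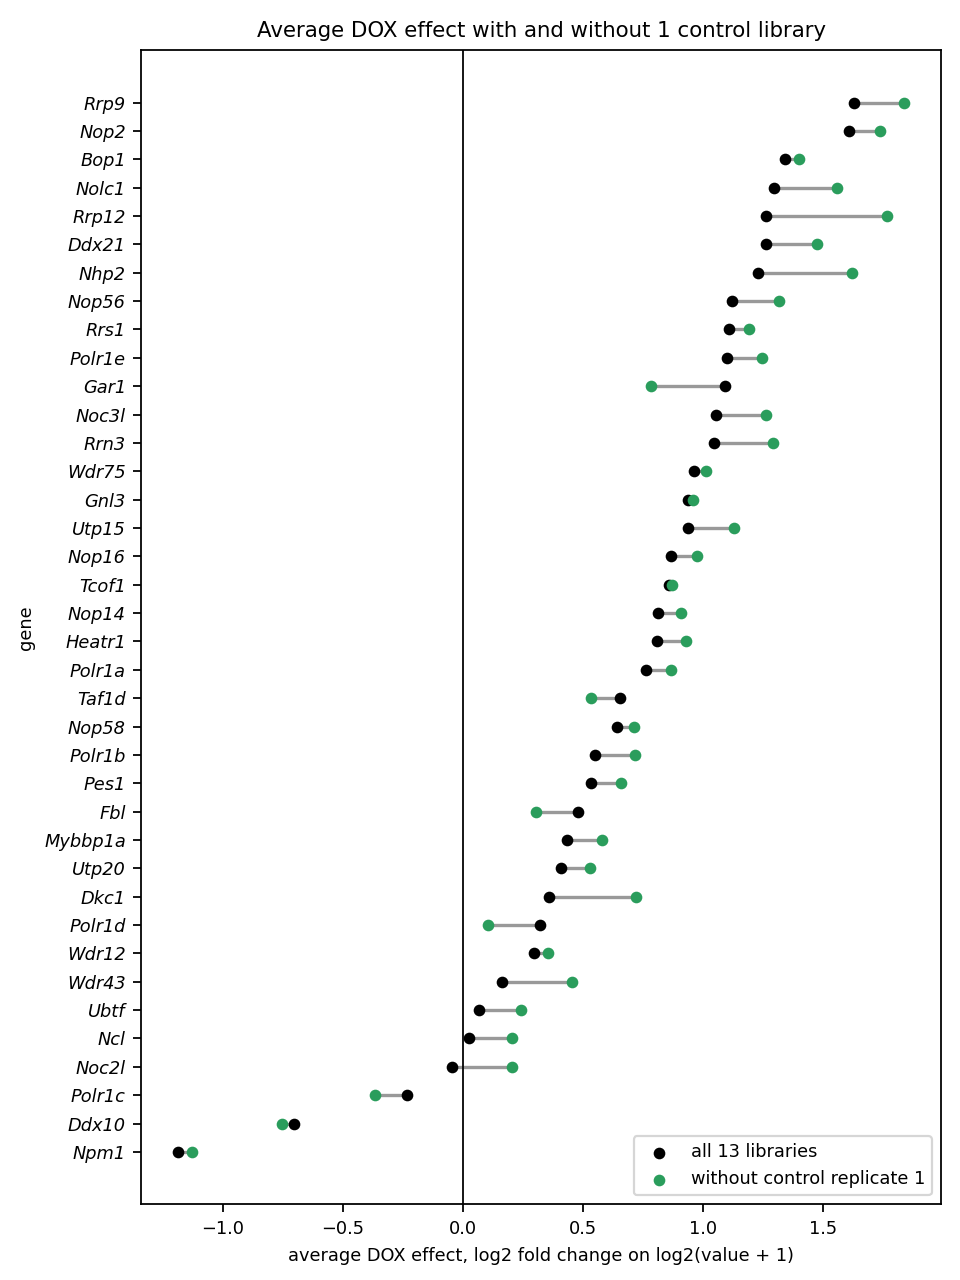
Average DOX effect of each gene (rows, in order of its size) as log2 fold change on log2(value + 1), with all 13 libraries (black) and without control replicate 1 (green). Most green points lie to the right of the black ones, with the longest shifts for *Rrp12*, *Dkc1* and *Nhp2*, and to the left for *Gar1*, *Polr1d* and *Fbl*.

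The wider pathway was described with 131 other genes in the same roles, of which 67 were higher and 4 lower in the average DOX effect, with a median log2 fold change of 0.56, against 18.5% of tested genes higher, 15.8% lower and a median of 0.06. Without control replicate 1 the counts were 84 and 5 and the median was 0.60. In that fit 20.8% of tested genes were higher and 18.6% lower, with a median of 0.04. *Taf1c*, the only other listed gene, was not analysed here. Of 13 other RNA polymerase I genes 5 were higher, among them *Sirt7*, a deacetylase that activates the polymerase (0.96 ± 0.20), *Polr2f*, a subunit shared by all nuclear RNA polymerases (0.94 ± 0.14), and the subunits listed as *Twistnb* (0.88 ± 0.14) and *Cd3eap* (0.72 ± 0.20). Of 10 other snoRNP genes 4 were higher, with *Znhit3*, a C/D assembly factor (0.86 ± 0.32), and *Nop10*, the fourth H/ACA core protein (0.55 ± 0.13), at the top.

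The small subunit and 60S lists had the same direction. Of 45 other small subunit genes 27 were higher and 1 was lower: *Bysl* (1.68 ± 0.24) and *Pno1* (1.60 ± 0.17), both needed for late 40S maturation, rose most, and *Wdr36* fell by 1.06 ± 0.16. Of 49 other 60S genes 27 were higher and 2 lower, with *Nip7* (1.48 ± 0.29) and *Surf6* (1.40 ± 0.20) up and *Nop53* (-0.95 ± 0.23) and *Nsa2* (-0.57 ± 0.15) down. Of 14 exosome and rRNA trimming genes 4 were higher, led by *Exosc2* (1.89 ± 0.22) and *Exosc1* (1.29 ± 0.16), and 1, the exonuclease gene *Xrn2*, was lower (-0.62 ± 0.14).

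In the MYC network 3 of 10 genes were higher and 2 lower, against 18.5% and 15.8% of tested genes: *Max*, the partner of MYC, rose by 1.60 ± 0.32 and *Mycl* by 1.04 ± 0.30, while *Mxi1* (-1.62 ± 0.20) and *Mxd4* (-0.96 ± 0.29), which compete for MAX, were lower. *Myc* itself had a log2 fold change of 0.32 ± 0.43 (adjusted p = 0.597). Of 11 RNA polymerase III subunits 5 were higher, among them *Polr3d* (0.95 ± 0.15), and *Polr3gl* was lower (-1.24 ± 0.28).

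Unassembled 5S RNP, which contains RPL5 and RPL11, binds MDM2 when ribosome assembly is disturbed. *Rpl5* was lower (-0.73 ± 0.27, adjusted p = 0.0472), *Rpl11* had a log2 fold change of -0.32 ± 0.35 (adjusted p = 0.501) and *Mdm2* one of 0.39 ± 0.20 (adjusted p = 0.15). *Trp53* rose by 1.73 ± 0.29 (adjusted p = 0.000423), and *Cdkn1a*, a p53 target, was not called (0.27, adjusted p = 0.299). Whether these cells make working p53 protein was not measured, so the messages show neither a p53 response nor its absence. In this list of 6 genes 1 was higher and 1 lower, against 18.5% and 15.8% of tested genes. Without control replicate 1 the counts were 1 and 2, against 20.8% and 18.6%.

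**Figure D5:**
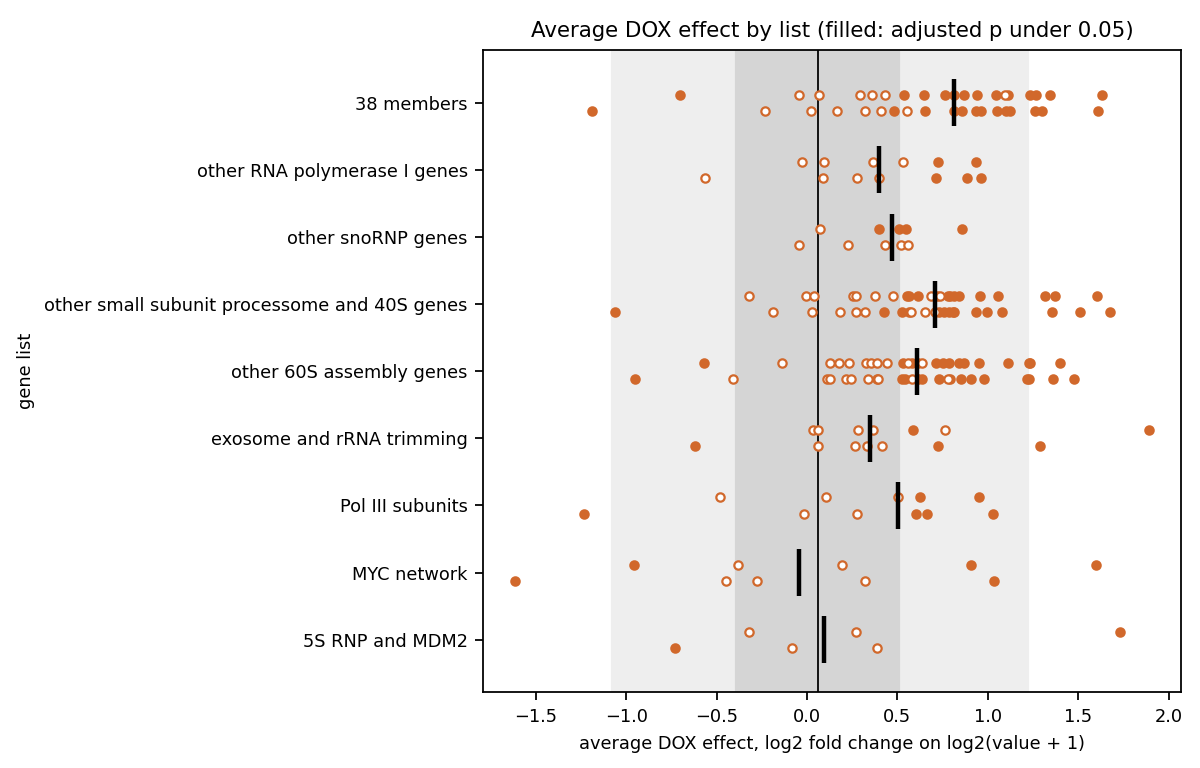
Average DOX effect as log2 fold change on log2(value + 1) for the 38 genes and 8 other lists (rows), each point a gene, filled at a limma adjusted p under 0.05, with the list's median as a black bar. Grey bands hold the middle of all 12319 tested genes, from the 25th to the 75th percentile (dark, -0.39 to 0.51) and from the 5th to the 95th (light, -1.08 to 1.22), and the thin line is their median of 0.06. The medians of the ribosome assembly lists lie to the right of that line and the median of the MYC network does not.

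The scaling of the libraries moved the level of all genes. Scaled by library size alone, the average DOX effect had a median of 0.23 on the log2 scale over the tested genes and of 1.01 over the members, and 29 members were higher and 2 lower. The share of all tested genes called under that scaling was not counted, so the count of 29 has no such share beside it. *Npm1* and *Ddx10* were lower and the 24 members called higher stayed higher under each scaling tried.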

How the data were processed

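Bulk 3' mRNA libraries (QuantSeq FWD) of 4T1-Thy1.1 cells in 4 groups were analysed. The authors trimmed the reads, aligned them to mm10 with STAR, counted them per gene with featureCounts and normalized the counts by TMM. The deposited table gives this normalized signal for 13222 genes. In each of the 13 libraries all values (100%) were whole multiples of 1 step (tolerance 0.1), so read counts were recovered, and recomputed TMM factors matched those in the deposited signal (ratio 1.0000). Groups came from the sample labels.

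limma with trend was run on log2(value + 1) with group as the only factor over all 13 libraries (9 residual degrees of freedom), for the 12319 genes kept by edgeR's filterByExpr, where the study's methods state voom and limma, which was an alternative. P-values were adjusted by Benjamini-Hochberg over all tested genes, with calls at 0.05. The members and lists were chosen with earlier results of these data known. By the rule for named genes all 38 are accounted for by role. Full values are given for the 4 called members with the largest change in each direction and for *Polr1a*, *Polr1b*, *Rrn3*, *Ubtf*, *Fbl*, *Ncl* and *Npm1*, and of each other list for the 2 called genes with the largest change in each direction, with *Myc*, *Mdm2*, *Rpl5* and *Rpl11*. *Wdr43*, *Twistnb*, *Cd3eap* and *Cdkn1a* were added after their values were seen. The result of 1 gene that the rule names is not reported here.

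Alternatives were voom with limma, DESeq2, library size and DESeq2 size factor scaling, no filter on genes or a filter at 10 reads on average, 0.1 in place of 1 as pseudocount, fits of the compared groups alone, a block for the replicate number (5 residual degrees of freedom) and fits without each library. edgeR's quasi-likelihood test was added after the data were seen. On simulated reads for the average DOX effect, limma called 163 of 189 changed genes and 6 others among 12147 tested. The median log2 fold change of those 189 genes, taken in the direction set, was 1.87. Detection at the size of the members' median, 0.81, was not tested. Near copies are alignments of the last 500 annotated bases (GENCODE, GRCm38) over at least 75 bases at 95% identity or more, and 11 members had at least 1. *Noc3l* had them in 82 other genes (up to 89 bases), *Polr1b* in 53 (up to 193) and *Nop58* in 21 (up to 106). The values of these 3 are uncertain too. The versions were limma 3.58.1, DESeq2 1.42.0, edgeR 4.0.16, R 4.3.3 and, for summaries, python 3.11.15 with pandas 2.3.3 and numpy 2.4.6.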

Additional observations from a re-analysis of the deposited data

Results flagged for a closer look

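Groups of 4 libraries were screened for a single value far from the rest, which applies to the DOX group only and was done for 38 genes. Chance alone flags about 1 group in 20, and 2 of 38 were flagged. *Rrn3* measured 121 in DOX replicate 3 and 101 to 103 in the other DOX libraries. *Fbl* measured 119 in DOX replicate 3 and 131 to 133 in the others. Without DOX replicate 3 the average effect on *Rrn3* stayed called, and that on *Fbl* did not.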

How the results depend on the processing

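Leaving out 1 library in turn, the members called ranged from 11 to 24 for DOX against control (20 with all libraries), with 11 without control replicate 5. For DOX+IL-17A against IL-17A they ranged from 4 to 20 (15 with all), with 8, 9 and 6 without DOX+IL-17A replicates 2, 3 and 5 and 4 and 5 without IL-17A replicates 3 and 5. For DOX+IL-17A against control they ranged from 8 to 28 (16 with all), and 4 were called with only the groups compared. For the average DOX effect they ranged from 24 to 30 (26 with all), and 22 of the 26 were called in every fit that left out a library and under every other setting. *Fbl* lost its call with the block (adjusted p = 0.0565) and *Mybbp1a* gained one (0.0467). *Rrp12* had no adjusted p in DESeq2. The cause of these shifts was not tested. Shares of all tested genes were not counted in these alternative fits, except for the average DOX effect without control replicate 1. Of the uncalled members, some changed sign. With 1 library left out, *Ubtf* ranged from -0.026 to 0.24, *Ncl* from -0.12 to 0.21, *Wdr43* from -0.0022 to 0.46 and *Noc2l* from -0.22 to 0.20 on the log2 scale. *Ubtf* was at -0.0067 and *Ncl* at -0.048 with DESeq2, *Ncl* was at -0.027 with edgeR, and *Noc2l* was at 0.0067 with voom, 0.15 with library size scaling and 0.070 with the replicate block.

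Libraries with the same replicate number correlated in their deviations from the group means by 0.15 on average over 13 pairs, of which 8 were over 0.1. Pairs with different numbers averaged -0.037 over 50 pairs, of which 13 were over 0.1. The labels do not say what the numbers mean. The main fit did not pair libraries by them, and whether they mark a shared batch was not tested. With the replicate number as a block, 13 members were higher and 1 lower for DOX against control, 17 and 2 for DOX+IL-17A against IL-17A, 24 and 2 for the average DOX effect, and 16 and 1 for DOX+IL-17A against control. Of the members higher in both DOX comparisons, *Noc3l*, *Nop16* and *Utp15* then lost the call for DOX against control (limma adjusted p = 0.0635, 0.0809 and 0.0880). *Fbl*, *Nop58* and *Wdr75* lost it too (adjusted p = 0.0714, 0.0650 and 0.0569). The shares of all tested genes called with the block were not counted.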
